A study of Mus with 15 samples.

Results

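To examine what Qingda granule (QDG) changed in the vessel wall on top of angiotensin II (AngII), the RNA of the abdominal aorta of 5 AngII + QDG mice was compared with that of 5 AngII mice, 10 of the 15 mice of the series. All were wild-type male C57BL/6 mice of 8 to 10 weeks, and all 10 received AngII by osmotic pump for 14 days. The AngII group received AngII at 500 ng/kg/min and water by gavage, and the AngII + QDG group received the same infusion and QDG by gavage at 1.145 g/kg/d. The sample descriptions of the AngII mice give doses of 500 to 504 ng/kg/min, while their treatment field gives 500. The 5 Control mice were infused with saline and given water. They enter below where their levels are set beside those of the other groups, and in 1 alternative fit of all 3 groups.

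AngII is the effector peptide of the renin-angiotensin system. Through its type 1 receptor on vascular smooth muscle it releases stored calcium, activates ERK kinases and contracts the vessel. QDG is an oral preparation of 4 herbs, Gastrodia elata, Uncaria rhynchophylla, Scutellaria baicalensis and Nelumbo nucifera, used against high blood pressure. The measured unit was the single transcript. A gene is usually transcribed into several transcripts that share exons, and a program such as StringTie divides the fragments of the shared exons among the transcripts on the list it is given. The level of a transcript therefore depends on the RNA and also on which other transcripts are on that list.

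The values are FPKM, fragments scaled by transcript length and by the mapped fragments of the library. Only transcripts with an Ensembl identifier that occurs in the files of both groups were compared, 108027 in all, and 21081 of them (19.5%) reached an FPKM of 1 in at least 5 of the 10 mice. The AngII files list 2055 Ensembl transcripts that the AngII + QDG files lack, and the AngII + QDG files list 2384 that the AngII files lack. Transcripts that StringTie reconstructed numbered 16637 and 15032. The AngII list also served the Control mice. The list and QDG treatment cannot be told apart, since every mouse on the second list received QDG and no other mouse did. Transcripts were not paired with gene names here, so the results are given for transcripts, the markers of the aorta could not be checked, and no pathway is described. In whole tissue, fewer cells of a type and less RNA per cell cannot be told apart.

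Measures of the libraries overlapped between the groups. Shared Ensembl transcripts held 87.8% to 89.3% of the summed FPKM in AngII mice and 87.5% to 89.5% in AngII + QDG mice, and reconstructed transcripts 10.6% to 12.2% and 10.4% to 12.5%. Shared transcripts reaching 1 FPKM numbered 21063 ± 759 (SD, n = 5) in AngII and 21393 ± 677 (SD, n = 5) in AngII + QDG mice. Of 6 such measures, none passed a test between the groups (2-sided exact permutation tests, lowest p = 0.175, adjusted p = 0.706). Read depth was not given in counts, so the precision rests on the spread between mice.

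For most transcripts the difference between AngII + QDG and AngII mice was small. On the log2(FPKM + 1) scale its median was -0.00321, and the middle 50% of transcripts lay between -0.17 and 0.17. The 95% interval of the difference reached 0.52 to each side in the median transcript. For 14135 transcripts (67.1%) the whole interval lay within a 2-fold change in either direction. For 143 transcripts it lay wholly above a 2-fold increase and for 80 wholly below a 2-fold decrease. The remaining 6723 intervals crossed a 2-fold change, so 5 mice per group did not settle whether these transcripts differed by 2-fold. The intervals were not adjusted for the number of transcripts. Those tested include 141 that reached 1 FPKM in all 5 mice of 1 group and in 0 of the other. These 141 had to differ, 83 higher in AngII + QDG and 58 higher in AngII, and the counts of intervals do not leave them out.

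Mice of different groups were only slightly farther from each other than mice within a group. The mean absolute difference of log2(FPKM + 1) over the tested transcripts had a median of 0.56 over the 10 pairs of AngII mice, with a range from 0.49 to 0.61. Over the 10 pairs of AngII + QDG mice the median was also 0.56, with a range from 0.50 to 0.68. It was 0.59 over the 25 pairs of 1 mouse from each group (0.52 to 0.67). All 10 mice were farther on average from the other group than from their own, by the least in mouse 3985 (0.62 to its own group and 0.63 to the other). The 141 transcripts that reached 1 FPKM in 1 group alone are among those tested. By the filter itself they add to the distance between groups, so these distances are a description and not a test. The median SD of a transcript was 0.35 in AngII and 0.36 in AngII + QDG mice. Mouse 3985 was the farthest from its AngII + QDG group, at a mean of 0.62, and mouse 4048 the farthest from its AngII group, at 0.60.

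Against this background, 744 transcripts (3.53% of those tested) were differentially expressed (DETs) at a fold change of at least 2 and an unadjusted p below 0.05 in limma. QDG-treated mice had higher levels of 427 (2.03%) and lower levels of 317 (1.5%). An adjusted p below 0.05 (Benjamini-Hochberg) was reached by 365 transcripts (1.73%), 216 upregulated (1.02%) and 149 downregulated (0.707%). Of these 365, 125 were tested through 1 group alone, with all 5 mice of that group at 1 FPKM or more and 0 mice of the other. They had to differ, which leaves 240 others, 141 upregulated and 99 downregulated. The p-values of these 240 were adjusted together with those of the 125, so the 240 are not free of them. A filter chosen after seeing the data limited the test to transcripts at 1 FPKM or more in 3 mice of each group. Then 108 had an adjusted p below 0.05, 66 upregulated and 42 downregulated, against 157 transcripts of this kind in the full test. Of the 744 DETs 316 passed adjustment, 192 upregulated and 124 downregulated. In the other 49 transcripts with an adjusted p below 0.05 the difference of log2(FPKM + 1) was under 1 in size. With the filter applied to the remaining mice, there were 337 upregulated and 341 downregulated DETs without mouse 3985, and 447 and 259 without mouse 4048. With the same transcripts tested, there were 420 and 361 without mouse 3985, and 463 and 315 without mouse 4048. Upregulated transcripts with an adjusted p below 0.05 fell to between 95 and 114 when any AngII + QDG mouse was left out and the filter applied anew, and downregulated ones to between 65 and 84 when any AngII mouse was.

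**Figure D1:**
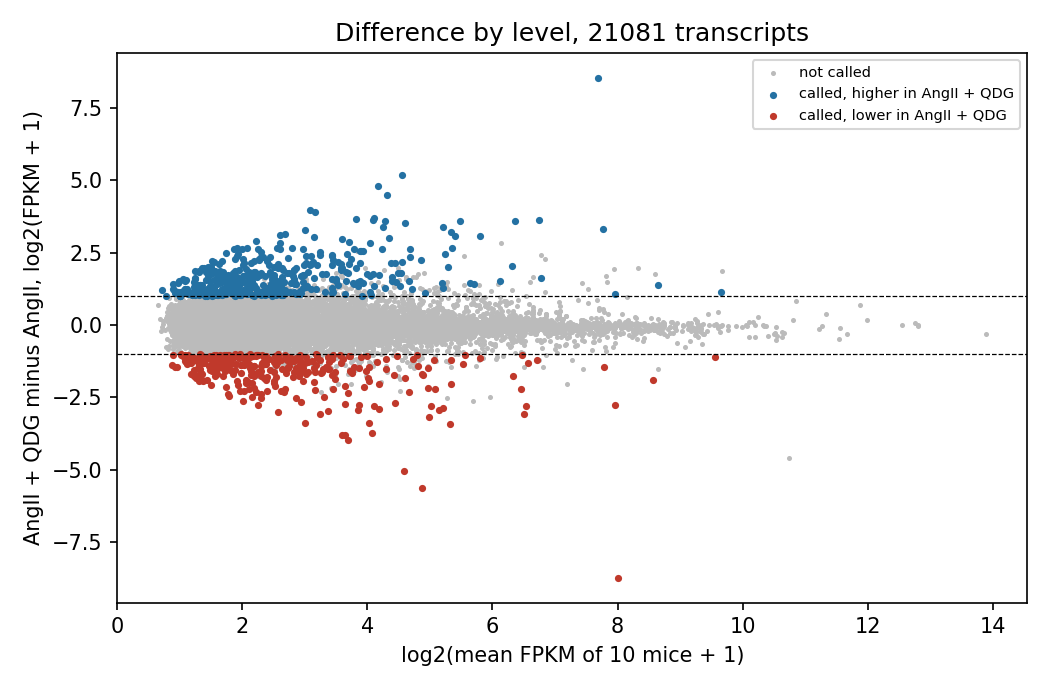
Difference between AngII + QDG and AngII mice (vertical axis, log2(FPKM + 1)) against the mean level of the 10 mice (horizontal axis, log2 of mean FPKM + 1), 1 point per transcript. Blue points are the 427 upregulated and red points the 317 downregulated DETs, grey points were not called, and dashed lines mark a 2-fold change. Most of the 21081 points lie between the lines.

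DETs were found at all levels of expression. Among 5520 transcripts with a mean below 2 FPKM, 93 were upregulated and 60 downregulated (2.77% called). Between 2 and 5 FPKM 169 rose and 120 fell among 6132 (4.71%), and between 5 and 10 FPKM 78 rose and 63 fell among 3697 (3.81%). Between 10 and 50 FPKM 75 rose and 61 fell among 4491 (3.03%). At 50 FPKM or more, where the most abundant transcripts of the tissue lie, 12 rose and 13 fell among 1241 (2.01%), and 16 of the 1241 had an adjusted p below 0.05. The 95% interval had a median reach to each side of 0.52 below 2 FPKM, 0.60 between 2 and 5 FPKM and 0.44 between 10 and 50 FPKM. Both the shares and the intervals are those of log2(FPKM + 1), which compresses differences and intervals at low levels, so the lowest classes cannot be ranked against the others.

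**Figure D2:**
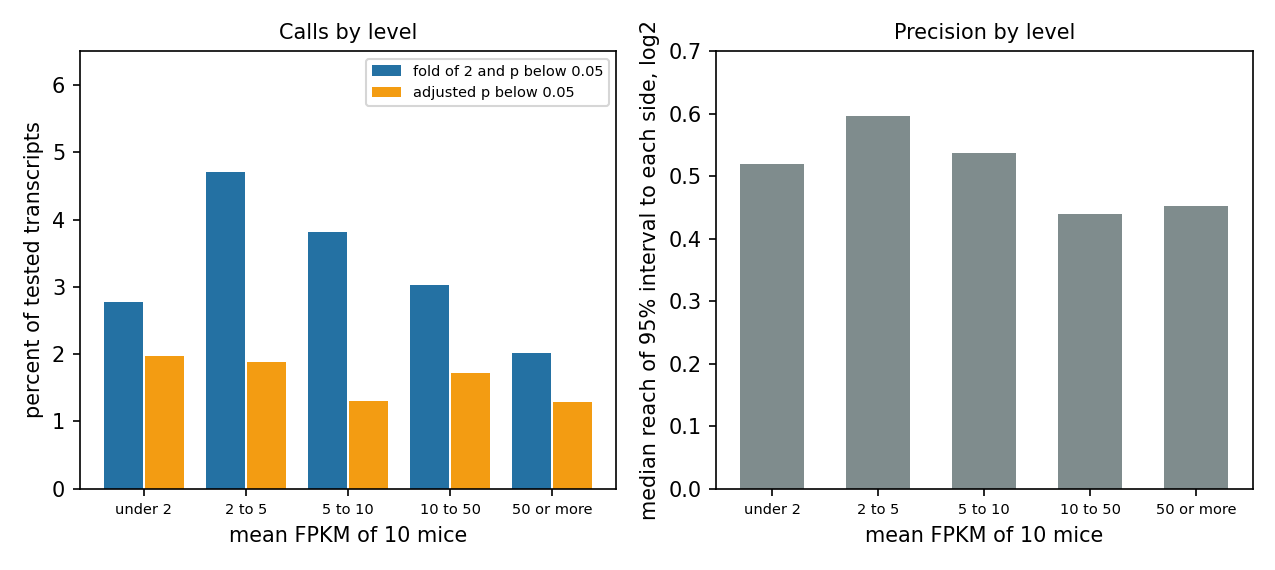
Left, the percent of tested transcripts called at a 2-fold change and p below 0.05 (blue) and at an adjusted p below 0.05 (orange), in 5 classes of mean FPKM. Right, the median distance from the difference to either end of its 95% interval (log2(FPKM + 1) units) in the same classes. The median is 0.52 below 2 FPKM and 0.60 between 2 and 5 FPKM, on a scale that compresses differences and intervals at low levels.

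The changes were mostly moderate, with a tail of very large ones. The median log2 fold change was 1.49 for upregulated DETs (quartiles 1.21 and 1.95) and -1.43 for downregulated DETs (quartiles -1.83 and -1.17). It was 2 or more in size for 99 upregulated and 61 downregulated DETs, and 113 of these 160 had an adjusted p below 0.05. A size of 3 or more was reached by 24 and 13. These counts, the 113 included, take in DETs from the 122 tested through 1 group alone, which had to differ. They are a description and not a test. Among transcripts at 1 FPKM or more in every mouse the largest log2 fold changes were 3.60 and -3.07. A change of at least 2-fold that missed the unadjusted p of 0.05 was seen in 376 further transcripts.

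The groups overlapped in part of the DETs and not in others. All 5 AngII + QDG mice were above every AngII mouse in 225 of the upregulated DETs, and all 5 were below every AngII mouse in 156 of the downregulated DETs. Over all transcripts tested, 603 (2.86%) had groups that did not overlap, 319 higher (1.51%) and 284 lower (1.35%). The 122 DETs tested through 1 group alone, 72 upregulated and 50 downregulated, are among the 381 without overlap and could not overlap. Without them, 259 of 622 DETs had groups that did not overlap, 153 upregulated and 106 downregulated. In another 90 upregulated and 80 downregulated DETs 4 mice lay beyond all AngII mice, and in 112 and 81 at most 3 did. Taken over the 427 upregulated DETs, the median log2 distance from the AngII mean was 1.47 in mouse 3981, 1.60 in 3982, 1.62 in 3983, 1.56 in 3984 and 1.63 in 3985. For the 317 downregulated DETs the same mice stood at -1.61, -1.55, -1.48, -1.58 and -1.46. No single AngII + QDG mouse carried these medians, which describe transcripts chosen by the same mice and are not a test.

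**Figure D3:**
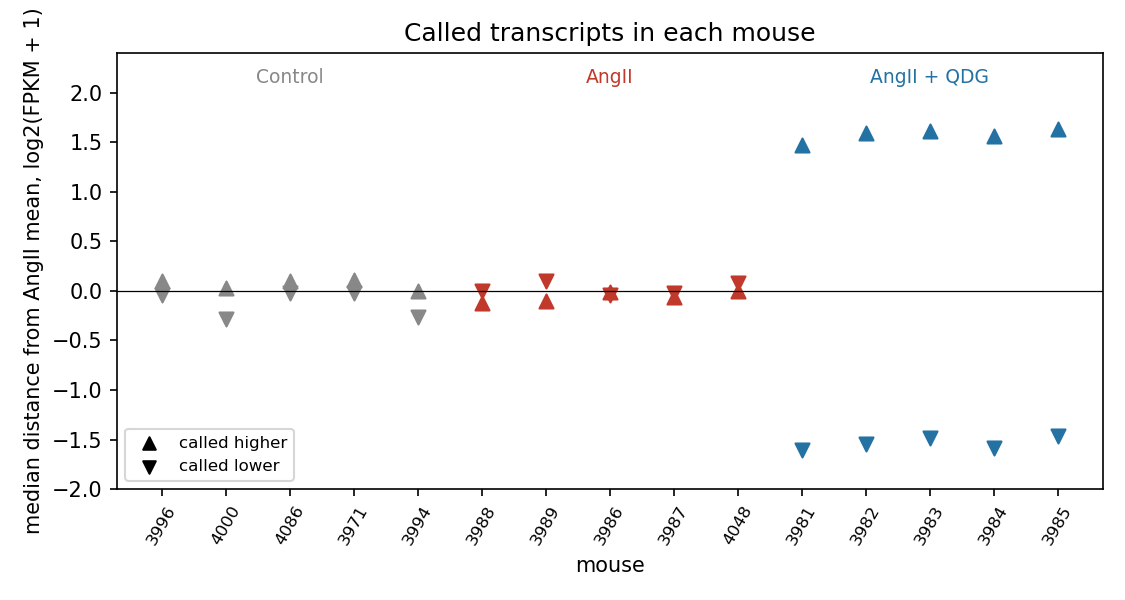
Median distance of the DETs from the AngII mean (vertical axis, log2(FPKM + 1)) in each of the 15 mice (horizontal axis, by mouse number), with upward triangles for the 427 upregulated and downward triangles for the 317 downregulated DETs. The 5 AngII + QDG mice (blue) lie between 1.47 and 1.63 and between -1.61 and -1.46, while Control (grey) and AngII (red) mice lie near 0.

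The transcripts named here were chosen by the smallest p among those without overlap, 2 in each direction. Both upregulated transcripts were below 1 FPKM in every AngII mouse and far above it in every AngII + QDG mouse. ENSMUST00000151137 was at 0.050, 0.0351, 0.0562, 0.0351 and 0.0336 FPKM in the AngII mice. In the AngII + QDG mice it was at 466, 663, 397, 225 and 297 FPKM, which placed it at rank 113 of the 108027 shared transcripts by mean level. Every AngII + QDG mouse was far above every AngII mouse. The difference was 8.52 on the log2(FPKM + 1) scale (SE 0.25). It was 11.4 with 0.1 added to the FPKM in place of 1, so its size depends on the added value. In the Control mice it was at 0.0450 ± 0.00942 FPKM (SD, n = 5), the same low level as in AngII mice.

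ENSMUST00000079758 was at 0.557, 0.598, 0.706, 0.664 and 0.618 FPKM in the AngII mice and at 41.3, 32.2, 54.6, 31.1 and 25.8 FPKM in the AngII + QDG mice. The groups were far apart, with a difference of 4.50 on the log2(FPKM + 1) scale (SE 0.19) and of 5.62 with 0.1 added in place of 1. Of the Control mice, 4 were between 0.635 and 0.713 FPKM and mouse 3994 was at 2.11.

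Both downregulated transcripts were the other way round, below 1 FPKM in every AngII + QDG mouse. ENSMUST00000044011 was at 59.6, 49.0, 64.3, 46.7 and 61.5 FPKM in the AngII mice. Of the AngII + QDG mice, 4 were at 0.578, 0.0975, 0.0250 and 0.109 FPKM and mouse 3984 was listed at 0. The groups did not overlap, with a difference of -5.63 on the log2(FPKM + 1) scale (SE 0.16) and of -8.1 with 0.1 added in place of 1. The Control mice, at 52.3 ± 7.60 FPKM (SD, n = 5), overlapped with the AngII mice and not with the AngII + QDG mice.

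ENSMUST00000178282 was at 422, 554, 465, 168 and 954 FPKM in the AngII mice, rank 91 by mean level in that group. The AngII + QDG mice were at 0.262, 0.0123, 0.0126, 0.0121 and 0.0117 FPKM. Here too no mouse of one group came near the other group. The difference was -8.72 on the log2(FPKM + 1) scale (SE 0.37) and -11.6 with 0.1 added in place of 1. This transcript was the most variable of the 4 within AngII mice in FPKM (SD 286), and in the Control mice it was at 411 ± 292 FPKM (SD, n = 5). Each of these 4 transcripts reached 1 FPKM in all 5 mice of one group and in 0 of the other and was chosen for groups that do not overlap, so the differences are descriptions and no p is given.

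**Figure D4:**
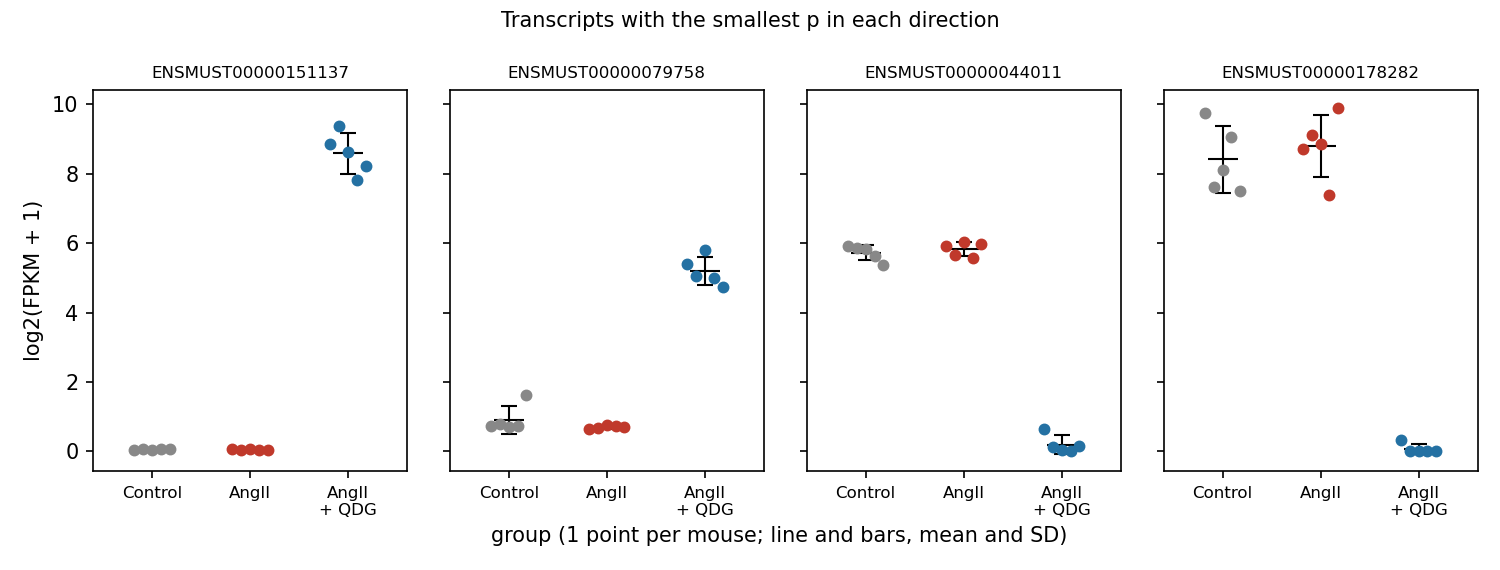
Levels of the 4 transcripts (vertical axis, log2(FPKM + 1)) in Control (grey), AngII (red) and AngII + QDG (blue) mice, 1 point per mouse, with the mean and SD of the 5 mice in black. In each panel the AngII + QDG mice stand apart, and the ranges of Control and AngII mice overlap.

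A stricter limit was then set for all DETs, 0.1 FPKM in every mouse of 1 group. In 18 upregulated DETs, ENSMUST00000151137 included, every AngII mouse was below 0.1 FPKM, with means in AngII + QDG mice from 1.31 to 410 FPKM (median 3.46). In 10 downregulated DETs every AngII + QDG mouse was below 0.1 FPKM, with means in AngII mice from 1.67 to 4.89 FPKM (median 2.85). In 14 of the 18 every Control mouse was below 0.1 FPKM, as in AngII mice, and in 5 of the 10 every Control mouse was at 1 FPKM or more. The reverse, every Control mouse at 1 FPKM or more in the 18 or below 0.1 FPKM in the 10, was seen in 0 and 0. In 4 of the 18, however, at least 1 Control mouse reached 1 FPKM, and the rest of the 10 met neither limit in all Control mice. More widely, 141 transcripts entered the test through 1 group alone, as defined above. The 141 gave 72 of the upregulated and 50 of the downregulated DETs, and 622 DETs were of other transcripts.

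When each of the 10 mice had to reach 1 FPKM, 12817 transcripts remained and 209 (1.63%) were DETs, 109 upregulated and 100 downregulated, of which 106 had groups that did not overlap. The adjusted p was below 0.05 for 87. These transcripts were at 1 FPKM or more in every mouse, and their largest log2 fold changes were 3.60 and -3.07. At the limit of the usual filter, 1589 transcripts reached 1 FPKM in exactly 5 mice and were tested, with a median of mean levels of 1.17 FPKM, and 1762 reached it in exactly 4 mice and were not, with a median of 0.976 FPKM.

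The Control mice were then set beside the DETs, to see on which side of the comparison their levels lay. They did not enter the test. The Control mean was nearer to the AngII mean than to the AngII + QDG mean in 602 of the 744 DETs (80.9%), against 53.9% of all transcripts tested. This held for 347 upregulated DETs (81.3%) and 255 downregulated DETs (80.4%), and for 345 of the 365 transcripts with an adjusted p below 0.05 (94.5%). Without the transcripts tested through 1 group alone it held for 482 of 622 DETs (77.5%), against 53.6% of those tested. It held for 222 of the 240 others with an adjusted p below 0.05 in the full test (92.5%). In the other 20 of the 365, 12 upregulated and 8 downregulated, the Control mean was nearer to the AngII + QDG mean. With the AngII mean set to 0 and the AngII + QDG mean to 1, the median Control level of the DETs was at 0.115 (quartiles -0.0152 and 0.401).

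The same was seen in transcripts measured in every mouse, where the Control mean was nearer to AngII in 175 of the 209 DETs (83.7%), against 53.4% of those tested. Among the 381 DETs whose groups did not overlap, all 5 Control mice lay beyond the AngII + QDG mice on the AngII side in 271, and all 5 lay beyond the AngII mice on the AngII + QDG side in 7, with 3 transcripts, whose Control mice lay between the groups, counted in both. These are 71.1% and 1.84% of the 381, against 61.4% and 1.99% of all 603 transcripts without overlap. The 603 include the 381, and among the 222 that were not DETs the shares were 44.6% and 2.25%. Without the transcripts tested through 1 group alone the numbers were 161 and 4 of 259 DETs (62.2% and 1.54%). They were 250 and 8 of all 462 such transcripts without overlap (54.1% and 1.73%), which include the 259. The median Control mouse level of upregulated DETs was at most 0.11 above the AngII mean in any mouse, and that of downregulated DETs was at -0.29 or nearer to 0 in every mouse. Upregulated DETs together held 0.438% to 0.528% of the summed FPKM of the shared transcripts in AngII mice, 0.583% to 0.713% in Control mice and 1.68% to 2.0% in AngII + QDG mice. Downregulated DETs held 1.39% to 1.94%, 1.22% to 1.59% and 0.447% to 0.601%. The gap between AngII and AngII + QDG mice in these sums is fixed by the choice of the DETs on the same 10 mice. For upregulated DETs every Control mouse was above every AngII mouse, and choosing transcripts that are low in the AngII mice can also give this, so the sums are a description only. Control and AngII mice share their list of transcripts, and the part of the list in these differences was not tested.

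**Figure D5:**
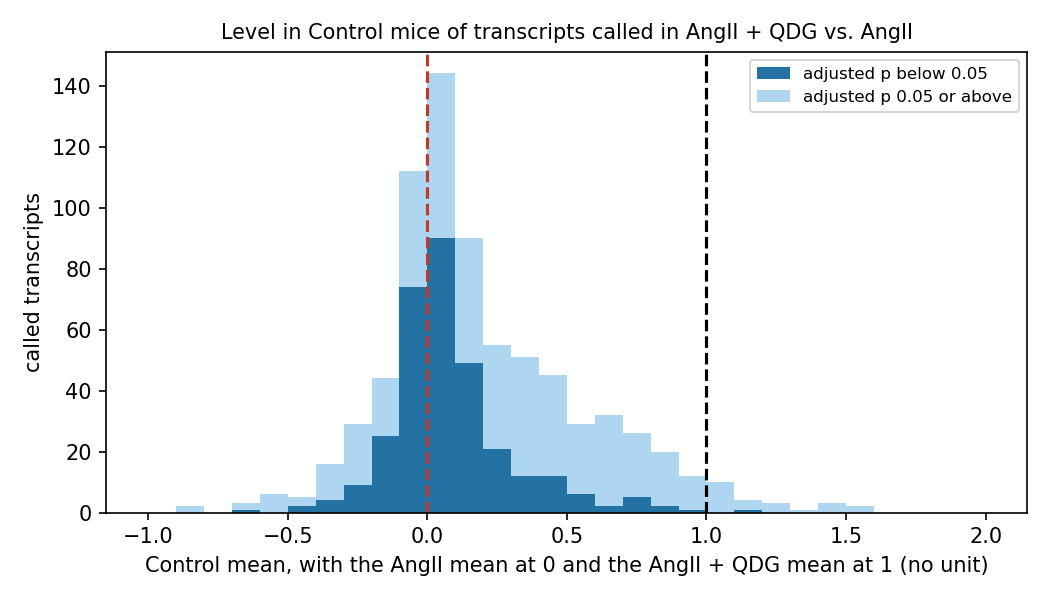
Number of DETs (vertical axis) by the level of the Control mice, on a scale without unit on which the AngII mean is 0 (red dashed line) and the AngII + QDG mean is 1 (black dashed line), with DETs at an adjusted p below 0.05 in dark blue and the others in light blue. The distribution has its median at 0.115, close to the AngII mean.

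Each mouse was also left out in turn. With the same 21081 transcripts tested, 473 of the 744 DETs (63.6%) were called again in all 10 fits. The 122 DETs that entered through 1 group alone stay tested in these fits and had to differ, and 116 of the 473 are of this kind, so they say nothing of stability. Of the 622 other DETs 357 (57.4%) were called again every time, 217 upregulated and 140 downregulated. Of the 240 other transcripts with an adjusted p below 0.05, 152 (63.3%) kept it every time, 92 upregulated and 60 downregulated. Their p-values were adjusted over all transcripts tested, those that entered through 1 group alone included.

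The filter itself also decided which DETs were tested again. When it was applied anew to the 9 remaining mice, 182 of the 744 DETs were not tested in at least 1 of the 10 fits, because a transcript that reaches 1 FPKM in only 5 mice falls below the required 5 once 1 of them is left out. Transcripts with an adjusted p below 0.05 then numbered 235 without mouse 3981, 215 without mouse 3982, 220 without mouse 3983 and 238 without mouse 3985, all AngII + QDG mice, and from 247 to 281 without one of the other mice. In these fits 344 of the 744 DETs (46.2%) were called every time, 210 upregulated and 134 downregulated, and 137 of the 365 transcripts (37.5%) kept an adjusted p below 0.05, 83 upregulated and 54 downregulated.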

How the data were processed

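Abdominal aortas of 5 AngII and 5 AngII + QDG mice, profiled by RNA-seq, were compared. The 5 Control mice were used for levels and in 1 alternative fit of all 3 groups. Groups were taken from the sample labels. Per the methods, the authors mapped reads to GRCm38/mm10 using HISAT2, then assembled transcripts and estimated their levels using StringTie. The authors deposited FPKM per transcript and mouse, already scaled for length and mapped fragments, and the unit was inferred from the values. Labels and methods differ on tissue storage and on the kit that removed rRNA. Total counts were not given in the sources used here.

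Shared Ensembl transcripts that reached 1 FPKM in 5 or more of 10 mice were tested on log2(FPKM + 1) by limma-trend (limma 3.58.1, R 4.3.3), AngII + QDG minus AngII. Fold changes on this scale understate those of low transcripts. A DET needed a 2-fold change and an unadjusted p below 0.05, and p-values were adjusted over all transcripts tested by the Benjamini-Hochberg method. The fit was also run on simulated data with 200 transcripts changed, and the outcome is not given here. The rule for named transcripts took the 2 smallest p in each direction among those with an adjusted p below 0.05, a 2-fold change and no overlap of the groups. Its gene lists, its marker lists and sums per gene needed gene names, and were not used. Members, lists and rules were chosen with earlier results of these data known. Single values were compared by exact permutation of the mice. Alternatives were other filters, a pseudocount of 0.1, 2 scalings, all 3 groups in 1 fit, robust eBayes and leaving out each mouse. Figures were drawn with matplotlib 3.10.9.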

Additional observations from a re-analysis of the deposited data

Results flagged for a closer look

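In 22 sets of 5 values, 1 per mouse of a group, 3 had a mouse that stood apart by more than 0.71 of the whole range (about 1.1 such sets come by chance). AngII mouse 3986 had 92523 transcripts above 0, and the other AngII mice had between 84713 and 86511. AngII + QDG mouse 3981 was at 0.578 FPKM for ENSMUST00000044011, where the other AngII + QDG mice were between 0 and 0.109. The same mouse was at 0.262 FPKM for ENSMUST00000178282, where the others were between 0.0117 and 0.0126. Both values of mouse 3981 were small beside the levels of these transcripts in AngII mice, of 56.2 and 513 FPKM on average.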

How the results depend on the processing

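When every mouse had to reach 1 FPKM, 209 DETs were called (109 up and 100 down) and 87 transcripts had an adjusted p below 0.05 (51 up and 36 down). When 3 mice of each group had to reach it, a filter chosen after seeing the data, the numbers were 362 (198 and 164) and 108 (66 and 42), and the Control mean was nearer to the AngII mean in 295 of the 362 (81.5%). Both filters test fewer transcripts. A pseudocount of 0.1 gave 1040 DETs, 560 up and 480 down, while adjusted p-values below 0.05 fell to 303, and the cause was not tested. With 1 mouse left out and the filter applied anew there were 660 to 726 DETs, 337 to 447 up and 246 to 341 down, while adjusted p-values below 0.05 numbered 215 to 281, 95 to 200 up and 65 to 133 down. With the same transcripts tested, also chosen after seeing the data, the ranges were 740 to 799, 420 to 463, 308 to 361, 305 to 339, 173 to 207 and 121 to 140. These counts include the transcripts that entered through 1 group alone and stay tested, so they say nothing of the stability of those. With the filter applied anew, the count by direction moved most. Upregulated transcripts with an adjusted p below 0.05 fell from 216 to 107, 96, 95, 114 and 111 without AngII + QDG mouse 3981, 3982, 3983, 3984 and 3985. Downregulated ones fell from 149 to 65, 72, 84, 66 and 81 without AngII mouse 3988, 3989, 3986, 3987 and 4048. Over all alternatives, 147 counts stayed within 1.5 times of the reported ones, among them every count without a filter, with other scalings, with robust eBayes and with all 3 groups, and 27 did not. The 4 named transcripts reach 1 FPKM in 1 group alone and are tested neither under the stricter filters nor when a mouse of that group is left out and the filter applied anew, so their values in the other fits show no stability. No paired analysis was possible because no mouse number occurs in both groups. Sums per gene, marker lists and tests of counts were left out for want of gene names and of counts.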
